A study of Mus musculus with 9 samples.

Results

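Fc receptors bind the constant part of antibodies, and their genes were compared across the R3, R2, and R1 populations of bone marrow (BM). The set was fixed by name and holds 7 mouse genes: *Fcgr1*, *Fcgr3*, *Fcgr4*, *Fcgr2b*, *Fcer1g*, *Fcer1a*, and *Fcgrt*. For each gene, the probe set (the group of array probes summarized into 1 value) that the platform annotation gives to this symbol alone was used. Of the 7 genes, 6 had such a probe set, 1 each, out of 19937 genes measured in this way, and *Fcgrt* was not analysed here. All cells came from the steady state BM of C57Bl/6 mice, aged 8 weeks per the labels, and all were sorted as Ly6Chi CD115+ cells. R3 (Flt3+CD11c+) are the cells the study calls pre-DCs, precursors of dendritic cells (DCs), and R2 (Flt3+CD11c-) and R1 (Flt3-CD11c-) are the cells it calls monocytes. There were 9 arrays, 3 per population, and each of 3 label dates holds 1 array of each population, so that replicates 1, 2, and 3 stand for the 3 dates. The sources used here do not say what the dates mark or whether the arrays come from separate or pooled mice, and the p-values therefore rest on array-to-array spread, which may be technical. The labels give no treatment and no engineered allele.

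Activating Fc gamma receptors are made of a ligand-binding chain, which *Fcgr1*, *Fcgr3*, and *Fcgr4* encode, and of a common signaling chain, which *Fcer1g* encodes. The common chain carries an immunoreceptor tyrosine-based activation motif (ITAM), which recruits the kinase Syk and starts phagocytosis, oxidative burst, and cytokine release when receptors are crosslinked by IgG. FcγRIIB, the product of *Fcgr2b*, carries an inhibitory motif instead and recruits the lipid phosphatase SHIP1. *Fcer1a* encodes the IgE-binding chain of the high-affinity IgE receptor, which uses the same common chain, and *Fcgrt* encodes the neonatal Fc receptor, which recycles IgG. Mouse monocytes and macrophages use these receptors to take up antibody-coated particles.

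The genes lie on 3 chromosomes in RefSeq. *Fcgr1* is on chromosome 3 and *Fcgrt* on chromosome 7, and the other 5 are on chromosome 1, where *Fcgr2b*, *Fcgr4*, and *Fcgr3* follow one another with no other protein-coding gene in between. The promoters of the 3 receptor chains that were lower in R3, and of the common chain, which was not called, are shown because these genes are what the results turn on. Each is the RefSeq window (GRCm38.p6) of 250 bases before and 50 after the annotated start, 5′ to 3′ on the gene's strand, with capitals at each match to GAGGAA, the core of PU.1-type Ets sites, or to TTCNNNGAA, the gamma-interferon-activated site, on either strand, and at the longest run shared by *Fcgr1* and *Fcgr3*.
*Fcgr1*, chr3:96293920-96294219, minus strand: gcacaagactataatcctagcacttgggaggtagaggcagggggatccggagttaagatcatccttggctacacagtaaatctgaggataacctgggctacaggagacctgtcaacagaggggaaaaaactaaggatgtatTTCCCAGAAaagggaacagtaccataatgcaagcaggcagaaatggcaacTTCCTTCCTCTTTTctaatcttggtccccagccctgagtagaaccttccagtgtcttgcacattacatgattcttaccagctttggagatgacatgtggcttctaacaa
*Fcgr3*, chr1:171059354-171059653, minus strand: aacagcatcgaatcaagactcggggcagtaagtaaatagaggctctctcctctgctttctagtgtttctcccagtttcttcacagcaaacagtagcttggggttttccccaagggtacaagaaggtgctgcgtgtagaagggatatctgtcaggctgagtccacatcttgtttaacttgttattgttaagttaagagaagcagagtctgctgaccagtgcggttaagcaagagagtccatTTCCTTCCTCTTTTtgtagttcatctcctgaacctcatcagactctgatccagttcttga
*Fcgr2b*, chr1:170976022-170976321, minus strand: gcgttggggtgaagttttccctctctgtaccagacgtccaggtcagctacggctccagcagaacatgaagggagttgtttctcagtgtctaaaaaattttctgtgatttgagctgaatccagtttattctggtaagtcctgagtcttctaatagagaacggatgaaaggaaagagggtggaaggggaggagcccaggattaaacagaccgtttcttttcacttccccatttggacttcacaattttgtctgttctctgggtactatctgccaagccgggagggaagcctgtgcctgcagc
*Fcer1g*, chr1:171234300-171234599, minus strand: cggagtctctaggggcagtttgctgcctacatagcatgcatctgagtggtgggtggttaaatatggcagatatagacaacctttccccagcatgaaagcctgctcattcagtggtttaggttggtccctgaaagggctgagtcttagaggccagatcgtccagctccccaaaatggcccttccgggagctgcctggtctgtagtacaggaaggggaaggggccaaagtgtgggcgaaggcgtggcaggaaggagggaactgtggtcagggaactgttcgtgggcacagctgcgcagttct
In these letters, the *Fcgr1* and *Fcgr3* windows shared the run TTCCTTCCTCTTTT of 14 bases, which starts at -59 in *Fcgr1* and at -10 in *Fcgr3*, counted from the start site, and which contains the Ets core. It was the longest run among the 21 pairs of the 7 genes' windows, for which the next longest had 11 bases and the shortest 7. The run occurred, on either strand, in 5 of 32851 windows, which belong to 4 of 27025 genes, *Dock2*, *Entpd1*, *Fcgr1*, and *Fcgr3*. The Ets core was also present in the windows of *Fcgr4* (at -22) and *Fcer1a* (at -216), and 28.3% of all windows hold it. The gamma-interferon-activated site was found in *Fcgr1* alone among the 7, as TTCCCAGAA at -109, and 8.3% of all windows hold such a site. No capitals appear in *Fcgr2b* and *Fcer1g* because neither motif was in those windows. *Fcgr3* has 2 start sites in the table, of which the first listed is shown. The motifs and the run were chosen with the sequences in view, and a match describes letters, not binding.

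Values are log2 of the deposited intensity, so that a difference of 1 is a 2-fold change. Populations were compared with limma, a linear model with a moderated spread, fitted once to all 9 arrays. Genes were called at an adjusted p (Benjamini-Hochberg over the 19937 genes in a comparison) under 0.05. Between R3 and R2, 3 of 6 Fc receptor genes were called and all 3 were lower in R3, where 9.55% of all genes were called, 4.85% higher and 4.69% lower. Between R3 and R1, the same 3 genes were lower, with 13.5% of all genes called, 6.49% higher and 7.02% lower. Between R2 and R1, 0 of 6 were called by limma, 0 had an unadjusted p under 0.05, by limma or by the methods' unpaired test, and 0.391% of all genes were called (0.211% higher and 0.181% lower). The arrays of the 2 populations did not overlap for 3 of 6 genes between R3 and R2, for 4 between R3 and R1, and for 0 between R2 and R1, where this held for 24.8%, 24.5%, and 13.4% of all genes. The 3 genes called were *Fcgr1*, *Fcgr3*, and *Fcgr2b*, that is, 2 of the 3 activating binding chains and the inhibitory receptor. They did not overlap in either comparison of R3. The other gene without overlap between R3 and R1 was *Fcer1a*, which was dim, slightly higher in R3 (0.08), and not called (adjusted p = 0.616). The median log2 fold change of the 6 genes was -0.52 for R3 minus R2, -0.97 for R3 minus R1, and -0.16 for R2 minus R1, and over all genes it was -0.01, -0.02, and -0.02. The comparisons share arrays (R3 is in the first and second), so they do not count as separate evidence. In a sorted population measured in bulk, fewer cells with the transcript and less transcript per cell cannot be told apart.

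**Figure D1:**
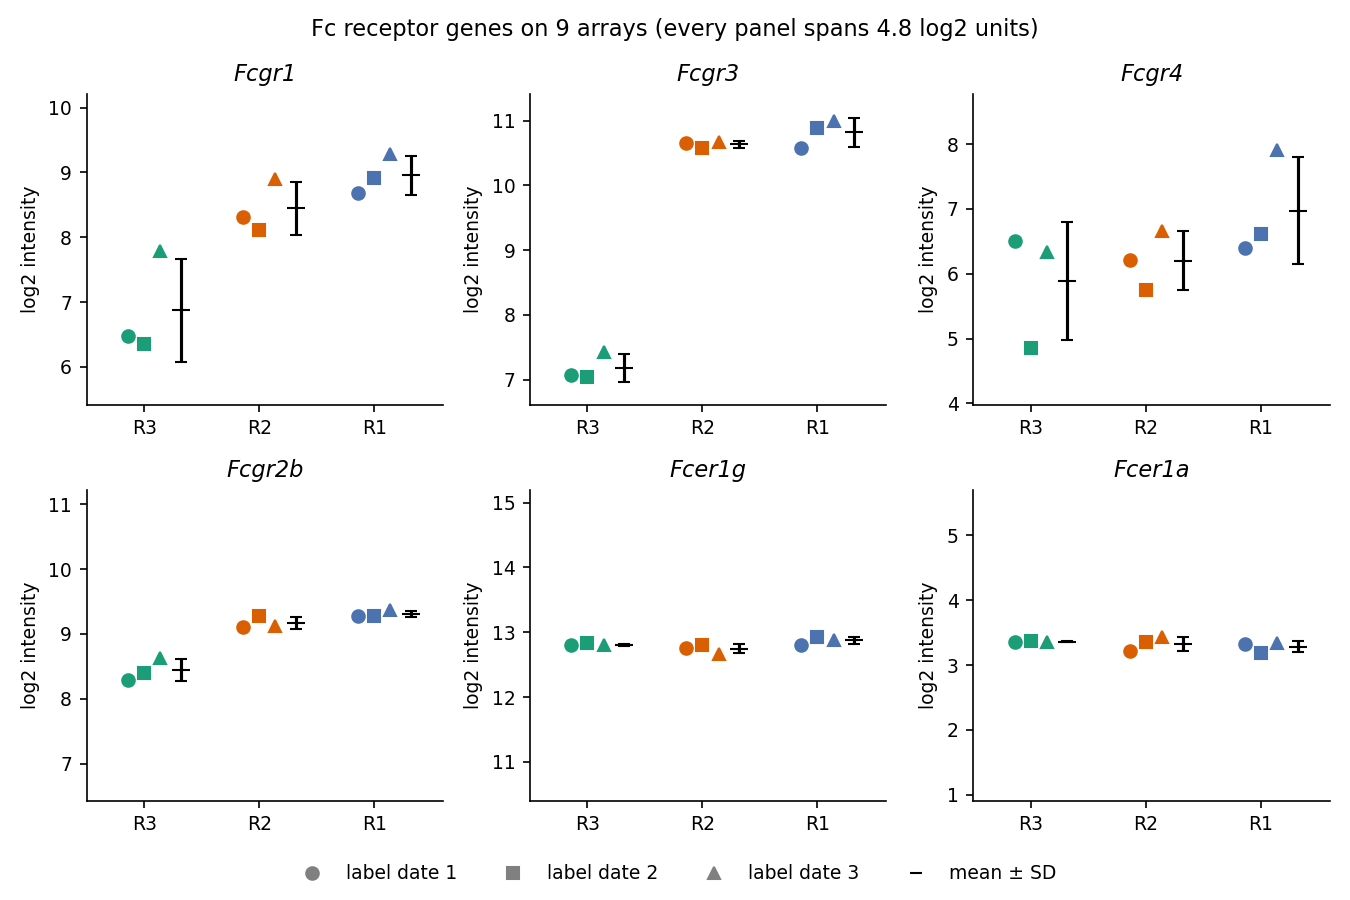
Log2 intensity (vertical axis) of 6 Fc receptor genes in R3, R2, and R1, with 1 point per array, the symbol giving the label date and the bar the mean ± SD of 3 arrays. In the *Fcgr3* panel the R3 arrays sit between 7.04 and 7.43, below all R2 and R1 arrays, and the *Fcer1g* points lie between 12.67 and 12.93 in all populations.

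The sort and the other cells it might hold were checked first. *Flt3*, one of the sort markers, was at 11.04 ± 0.05 in R3, against 7.91 ± 0.19 in R2 and 7.23 ± 0.52 in R1 (log2 intensity, SD, n = 3 each), and *Itgax* (CD11c) at 10.78 ± 0.08, 5.84 ± 0.47, and 5.21 ± 0.13 in the same order. Between R2 and R1, which the sort separates by Flt3, *Flt3* itself was not called (log2 fold change of 0.68, limma adjusted p = 0.281). *Csf1r* (CD115) was at 10.74 ± 0.14 in R3, against 10.98 ± 0.05 in R2 and 11.25 ± 0.08 in R1. *Ly6c2* is in a probe set of several genes and was not used. R3 carried all 8 DC markers of a list higher than R2, by the limma call. Under alternative processing, the call was lost for *H2-Ab1* in 14 of 23 settings and for *Zbtb46* in 10 of 22, single arrays left out among them. It was lost for *Ciita* in 3 of 23 and for *Cd209a* in 1 of 23. *Flt3*, *Itgax*, *Clec9a*, and *Kmo* kept it in all. Plasmacytoid DC markers moved with R3 too, with 4 of 6 measured (7 listed) called higher against R2 and 5 against R1. Their summed linear intensities were 6934 to 9154 in R3, 1666 to 1801 in R2, and 1887 to 1896 in R1. *Siglech*, *Tcf4*, and *Bst2* kept the call in all 23 settings in both comparisons. *Cox6a2* lost it in 14 of 23 against R2 and in 4 of 23 against R1, and *Ccr9* lost it against R1 in 13 of 22. The summed linear intensity of 7 measured of 9 listed monocyte genes was 13299 to 16246 in the R3 arrays, 24355 to 26570 in R2, and 27215 to 28353 in R1. For neutrophil genes (10 of 10 measured), R3 arrays 1, 2, and 3 were far apart, with sums of 16499, 1811, and 7267, against 15523 to 20468 in R2 and 10951 to 15441 in R1. The primary granule genes of that list did not vary in this way and were low in all R3 arrays. *Elane* was at 7.21 ± 0.27 in R3, against 11.37 ± 0.18 in R2 and 10.68 ± 0.30 in R1. *Mpo* was at 8.01 ± 0.31, 12.33 ± 0.33, and 11.61 ± 0.30 in the same order. Both were called lower in both comparisons, and the other 8 neutrophil genes were not called. Of those 8, *Ngp*, *Ltf*, *Camp*, and *Retnlg* had their highest mean in R3, and *S100a8*, *S100a9*, and *Cxcr2* their lowest. *Ngp*, for example, was at 8.68 ± 2.25 in R3, against 6.61 ± 0.82 in R2 and 5.78 ± 0.98 in R1. None of these markers was listed at 0. The sums are linear, so bright genes weigh most in them, such as *S100a8* among the neutrophil genes (means of 11.1, 12.5, and 12.2 for R3, R2, and R1). Mean *Ly6g* was only 4.57, 4.32, and 4.62 in the same order. *Retnlg* (4.59, 4.25, and 4.26) and *Cxcr2* (3.95, 4.56, and 3.96) were similarly low, so the neutrophil sum says little about these genes. The part of these lists in the results below was not tested, and each call is therefore also given without the R3 arrays in question where it changes.

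*Fcgr3* encodes the binding chain of FcγRIII, the low-affinity receptor for IgG complexes, and differed most of the 6 genes in both comparisons of R3. In R3 its log2 intensity was 7.08, 7.04, and 7.43, against 10.65, 10.57, and 10.67 in R2 and 10.57, 10.88, and 10.99 in R1. Every R3 array was thus far below every R2 and R1 array, whereas R2 and R1 overlapped. The log2 fold change was -3.45 for R3 minus R2 (95% confidence interval -3.74 to -3.15, adjusted p = 1.5e-06) and -3.63 for R3 minus R1 (-3.93 to -3.34, adjusted p = 4.9e-07), from limma. On the linear scale this put *Fcgr3* 10.9-fold higher in R2 than in R3, and 12.4-fold higher in R1 than in R3. The difference recurred on each date, with R3 minus R2 at -3.58, -3.53, and -3.24 and R3 minus R1 at -3.49, -3.84, and -3.56. Of 7 measured monocyte markers, 3 were called lower and 1 higher (*Cx3cr1*) in R3 than in R2, and 4 were called lower than in R1. Of 10 neutrophil genes, *Elane* and *Mpo* were called lower in both comparisons and 8 were not called. Plasmacytoid DC markers were called higher in R3, 4 of 6 against R2 and 5 of 6 against R1. Of these, *Siglech*, *Bst2*, and *Tcf4* kept the call in all 23 settings in both comparisons. R3 arrays 1 and 2, with neutrophil sums of 16499 and 1811, were at 7.08 and 7.04 for *Fcgr3*. The part of these cells in the result was not tested. Natural killer cells also express *Fcgr3*, and 1 of 8 of their markers was called, *Klrk1*. It was higher in R3 (7.81 ± 0.41, against 6.42 ± 0.47 in R2 and 6.19 ± 0.52 in R1). The call was lost in 7 of 23 settings against R2 and in 3 of 23 against R1. The defining *Ncr1* was at 3.86 ± 0.13 in R3, against 4.002 ± 0.14 in R2 and 3.92 ± 0.27 in R1, and was not called. For R2 minus R1, the log2 fold change was -0.18 (-0.48 to 0.11, adjusted p = 0.707), an interval of 0.717-fold to 1.08-fold for R2 over R1.

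*Fcgr1* encodes FcγRI (CD64), the high-affinity receptor for monomeric IgG. Its log2 intensity was 6.47, 6.36, and 7.79 in R3, against 8.31, 8.12, and 8.91 in R2 and 8.68, 8.91, and 9.28 in R1. R3 array 3 was more than 1 log2 unit above the other R3 arrays and stayed below every R2 and R1 array. In each population the array of date 3 was the highest. Its monocyte marker sum was the highest of the 3 arrays in R3 (16246), the lowest in R2 (24355), and between the others in R1 (27761), and the part of these markers in the result was not tested. Within dates, the differences were -1.84, -1.76, and -1.12 for R3 minus R2 and -2.20, -2.55, and -1.49 for R3 minus R1. The log2 fold change was -1.57 for R3 minus R2 (-2.40 to -0.74, adjusted p = 0.0261) and -2.08 for R3 minus R1 (-2.91 to -1.26, adjusted p = 0.00473), that is, 2.97-fold and 4.23-fold higher in R2 and in R1 than in R3. The first of these calls was lost without R3 replicate 1 (adjusted p = 0.0997), R3 replicate 2 (0.0901), R2 replicate 1 (0.0724), or R2 replicate 3 (0.113), and without the 3 arrays of date 1 (0.2385) or date 2 (0.221). The second was lost without date 1 (0.0857) or date 2 (0.103). The direction was the same in all of these, and over all left-out arrays and dates the log2 fold change for R3 minus R2 ranged from -2.03 to -1.31. R2 and R1 overlapped, although R2 was below R1 on all 3 dates (-0.37, -0.79, and -0.37). The log2 fold change was -0.51 (-1.34 to 0.32, adjusted p = 0.711), an interval that leaves room for a more than 2-fold difference in one direction.

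*Fcgr4* encodes FcγRIV, an activating receptor that mouse neutrophils and Ly6Clo monocytes express. Its log2 intensity was 6.50, 4.85, and 6.34 in R3, against 6.21, 5.74, and 6.65 in R2 and 6.40, 6.61, and 7.91 in R1. The 3 populations overlapped, and the spread was the widest of the 6 genes, with an SD of 0.91 in R3, against 0.46 in R2 and 0.82 in R1. Neither R3 minus R2 (-0.31, -1.45 to 0.83, adjusted p = 0.849) nor R3 minus R1 (-1.08, -2.22 to 0.06, adjusted p = 0.235) nor R2 minus R1 (-0.77, -1.91 to 0.37, adjusted p = 0.675) was called, and these intervals do not exclude a 2-fold difference. Without R3 replicate 2 the difference between R3 and R2 turned to 0.22. In R3 the arrays ranked by *Fcgr4* as they did by the summed intensity of neutrophil markers (16499, 1811, and 7267) and of 9 Ly6Clo monocyte markers (4842, 3677, and 4157). In R2 and R1 they did not rank alike throughout. Array 3 had the highest *Fcgr4* in both, but its neutrophil sum was 18539 in R2, where array 1 had 20468, and its Ly6Clo sum was the lowest in R2 (3651) and below that of array 1 in R1 (4483 and 4525). In R1 its neutrophil sum, 15441, was the highest. The neutrophil sum rests mostly on its brightest genes, whereas mean *Ly6g* was 4.57, 4.32, and 4.62 for R3, R2, and R1 and was not called. The part of neutrophils and Ly6Clo monocytes in the values of *Fcgr4* was not tested.

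*Fcgr2b* encodes the inhibitory receptor. Its log2 intensity was 8.29, 8.40, and 8.63 in R3, against 9.11, 9.28, and 9.13 in R2 and 9.27, 9.28, and 9.36 in R1. All R3 arrays were below all R2 and R1 arrays, by a smaller step than for *Fcgr3*, and R2 and R1 overlapped. The log2 fold change was -0.73 for R3 minus R2 (-0.95 to -0.52, adjusted p = 0.00106) and -0.86 for R3 minus R1 (-1.08 to -0.65, adjusted p = 0.0003), so that R2 was 1.66-fold and R1 1.82-fold above R3. Within dates, R3 minus R2 was -0.82, -0.88, and -0.50 and R3 minus R1 was -0.98, -0.88, and -0.73. The call against R2 was lost without the arrays of date 2 (adjusted p = 0.0676), and neither fold change reached the 2-fold minimum of the methods. B cells express *Fcgr2b* as well, and 2 of 8 B cell markers were called, *Cd22* (7.94 ± 0.25 in R3, against 6.22 ± 0.004 in R2 and 5.54 ± 0.23 in R1) and *Blnk* (6.79 ± 0.42, 5.06 ± 0.16, and 4.802 ± 0.19 in the same order), both higher in R3, whereas the other 6, *Cd79a* and *Ms4a1* among them, were not called. The part of B cells in the values of *Fcgr2b* was not tested. R2 minus R1 was -0.13 (-0.35 to 0.08, adjusted p = 0.706).

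**Figure D2:**
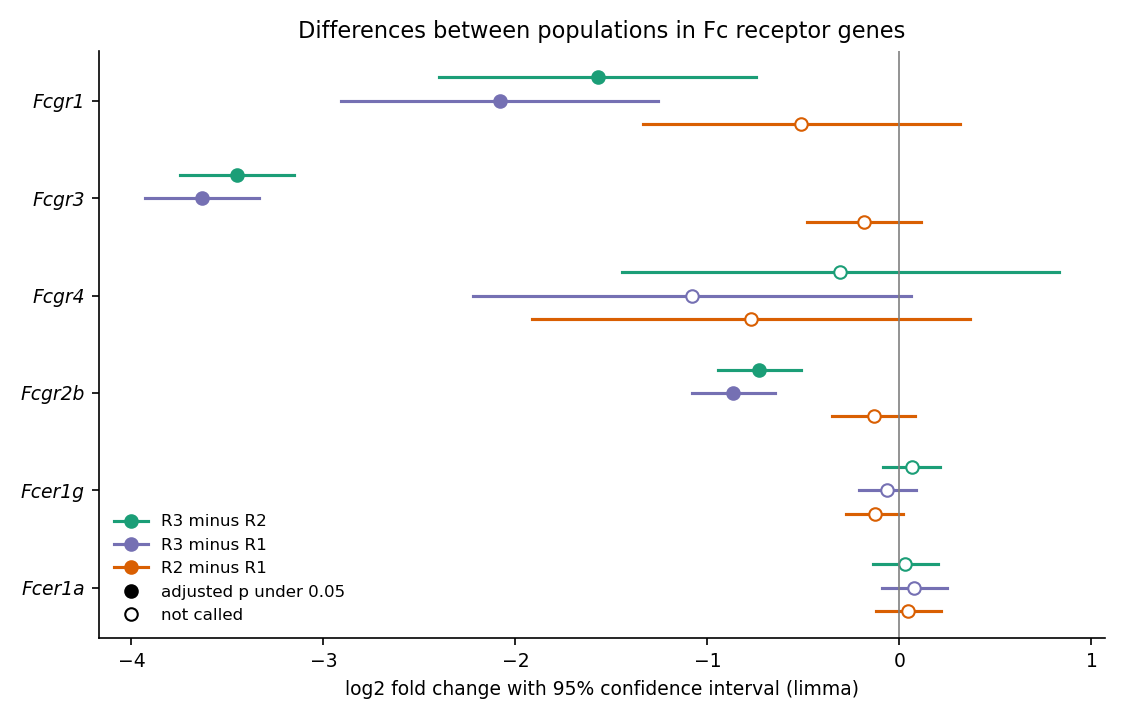
Log2 fold change (horizontal axis) of each Fc receptor gene between populations, with the 95% confidence interval of the limma fit, filled where the adjusted p was under 0.05. *Fcgr3*, *Fcgr1*, and *Fcgr2b* lie left of 0 in both comparisons of R3, whereas *Fcer1g* stays between -0.28 and 0.21 in all 3, interval included.

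*Fcgr3* and *Fcgr2b*, an activating and the inhibitory receptor, were thus both lower in R3. Whether by unequal amounts was tested on each array by subtracting *Fcgr2b* from *Fcgr3* on the log2 scale. Probe sets differ in brightness for the same amount of RNA, so this difference has no zero of its own, and only its change between populations can be read. It was -1.22, -1.35, and -1.20 in R3, against 1.54, 1.30, and 1.54 in R2 and 1.30, 1.61, and 1.63 in R1. R3 stood apart from both monocyte populations, which overlapped. The change was -2.72 for R3 minus R2 and -2.77 for R3 minus R1, with a two-sided exact permutation p of 0.1 in each case, the smallest that 3 against 3 arrays can give (0.15 after adjustment over the 3 comparisons). For R2 minus R1 the change was -0.05 (exact permutation p = 0.5, adjusted 0.5), and its sign turned when single arrays were left out. *Fcgr2b* and *Fcgr3* are close paralogs, and the sources used here do not say how far the probes of one detect transcripts of the other, so the values of both are uncertain to that extent.

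**Figure D3:**
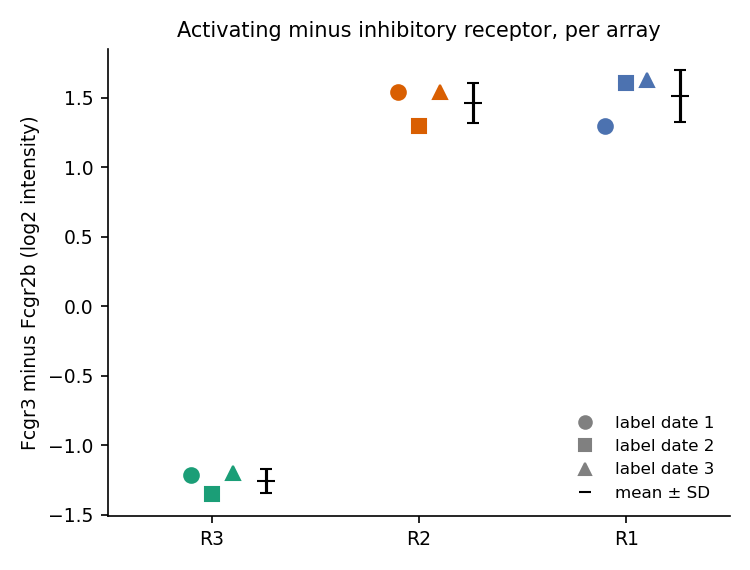
Difference of *Fcgr3* and *Fcgr2b* in log2 intensity on each array (vertical axis), by population, with the mean ± SD of 3 arrays and the symbol giving the label date. R3 arrays lie between -1.35 and -1.20, and R2 and R1 arrays between 1.30 and 1.63.

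Of the member genes for binding chains that use the common signaling chain, *Fcgr1* and *Fcgr3* were lower in R3, and *Fcgr4* and *Fcer1a* were not called. *Fcer1g*, which encodes the common chain, was not called in any comparison. Its log2 intensity was 12.80, 12.83, and 12.80 in R3, against 12.75, 12.81, and 12.67 in R2 and 12.81, 12.93, and 12.88 in R1. The 3 populations overlapped, and all arrays lay between 12.67 and 12.93. R3 minus R2 was 0.06 (-0.08 to 0.21, adjusted p = 0.718), R3 minus R1 was -0.06 (-0.21 to 0.08, adjusted p = 0.64), and R2 minus R1 was -0.13 (-0.28 to 0.02, adjusted p = 0.556). On the linear scale these intervals span 0.944-fold to 1.16-fold for R3 over R2 and 0.863-fold to 1.06-fold for R3 over R1. Intensities were 6529 to 7817 on the linear scale, and compression of differences at such brightness was not tested.

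*Fcer1a*, which encodes the IgE-binding chain of basophils and mast cells, was dim on all arrays. Its log2 intensity was 3.36, 3.37, and 3.36 in R3, against 3.22, 3.36, and 3.43 in R2 and 3.32, 3.19, and 3.34 in R1. These are linear intensities of 9.14 to 10.7, where the medians of the arrays were 58.0 to 64.7, and the deposited table gives no detection call. The R3 arrays lay just above the R1 arrays and overlapped with R2. Log2 fold changes were 0.03 for R3 minus R2, 0.08 for R3 minus R1, and 0.05 for R2 minus R1 (adjusted p = 0.908, 0.616, and 0.892), and at this brightness a difference may not be detectable. *Ms4a2*, the beta chain of the same IgE receptor, was at 3.63 ± 0.02 in R3, against 3.61 ± 0.01 in R2 and 3.61 ± 0.18 in R1. The sum over 9 measured of 10 basophil and mast cell markers was 386 to 582 in R3, 517 to 578 in R2, and 395 to 419 in R1. Against R2, 1 of the 9 was called, *Mcpt8*, which was lower in R3 (log2 fold change of -1.57, adjusted p = 0.0113). Against R1, 1 was called, *Kit*, which was higher in R3 (0.82, adjusted p = 0.0104). These calls were lost in 4 of 23 and 2 of 22 alternatives.

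The 3 genes lower in R3 varied together over the 9 arrays, which share 3 populations and 3 dates. Pearson's r was 0.974 for *Fcgr2b* with *Fcgr3*, 0.931 for *Fcgr1* with *Fcgr2b*, and 0.907 for *Fcgr1* with *Fcgr3*. With the population means removed, r was 0.596, 0.62, and 0.847 for these pairs, and it was 0.041 for *Fcgr3* with *Fcer1g* over the 9 arrays. Among all other genes, the ones most like *Fcgr3* were *Hp* (haptoglobin), *Gda* (guanine deaminase), and *Gapt*, each with r = 0.998. *Hp* was at 8.33 in R3, against 12.22 in R2 and 12.38 in R1. For *Fcgr2b* the closest were *Tarm1* (r = 0.995), *Aldh2* (0.993), and *Lyz2* (0.99), and for *Fcgr1* *Adam15* (0.991), *Hebp1* (0.988), and *Rusc2* (0.982). With r above 0.95 there were 318 genes for *Fcgr3*, 230 for *Fcgr2b*, and 68 for *Fcgr1*, against 4 each for *Fcgr4*, *Fcer1g*, and *Fcer1a*. The closest to *Fcgr4* was *Pxn* (0.976), to *Fcer1g* *Tsc1* (0.973), and to *Fcer1a* *Mageb4* (0.970). These correlations describe 9 arrays and carry no test.

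The partners of the receptors were taken from 5 lists with 92 measured genes. These lists were written from general knowledge but with earlier results of these data known, so their counts are a description. The shares of all genes called were 9.55% between R3 and R2 and 13.5% between R3 and R1. Of 30 measured ITAM signaling genes, 3 were called higher and 5 lower in R3 than in R2, and 4 higher and 5 lower than in R1, with median log2 fold changes of -0.04 and -0.08 (-0.01 and -0.02 over all genes). *Syk*, the kinase that binds the ITAM, was at 9.73 ± 0.08 in R3, against 9.82 ± 0.004 in R2 and 10.001 ± 0.20 in R1 and was not called (adjusted p = 0.763 against R2 and 0.126 against R1). *Lcp2*, which encodes the adaptor SLP-76 downstream of Syk, was at 9.37 ± 0.38 in R3, against 10.71 ± 0.04 in R2 and 10.92 ± 0.10 in R1, a log2 fold change of -1.34 against R2 and -1.55 against R1 (adjusted p = 0.000622 and 0.000197). The Src family kinase gene *Fgr* was at 8.72 ± 0.36 in R3, against 9.77 ± 0.09 in R2 and 10.25 ± 0.07 in R1 (log2 fold changes of -1.05 and -1.52, adjusted p = 0.00238 and 0.000188). *Tec*, a kinase (-0.89 and -1.13), and *Vav3*, a guanine nucleotide exchange factor (-0.60 and -0.43), were also lower, as was *Card9* (-0.45 and -0.49). Higher in R3 were *Pik3r1*, the regulatory subunit of PI3 kinase (0.70 and 0.60), *Vav2* (0.38 and 0.44), and *Cblb*, a ubiquitin ligase (0.32 and 0.31). *Lat2* was higher against R1 (0.50, adjusted p = 0.0371). Of these, *Vav2* and *Card9* against R2, *Vav3* and *Lat2* against R1, and *Cblb* in both lost the call when some single arrays were left out, and the highest adjusted p over the alternatives was 0.237, 0.209, 0.167, 0.303, 0.337, and 0.294 in this order.

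Of 10 measured genes of inhibitory signaling, 1 was higher and 3 were lower in R3, against R2 and against R1 alike, with median log2 fold changes of -0.11 and -0.26. *Inpp5d*, which encodes SHIP1, the phosphatase that FcγRIIB recruits, was at 10.76 ± 0.09 in R3, against 10.24 ± 0.14 in R2 and 10.34 ± 0.05 in R1. It was thus higher in R3 by 0.52 than in R2 and by 0.42 than in R1 (adjusted p = 0.00452 and 0.0111), the opposite direction to *Fcgr2b*. *Ptpn6*, which encodes the phosphatase SHP-1, was at 11.25 ± 0.11 in R3, against 11.03 ± 0.05 in R2 and 11.13 ± 0.02 in R1 and was not called (adjusted p = 0.114 and 0.393). *Ptpn22*, a phosphatase that restrains Src and Syk family kinases, was at 7.24 ± 0.16 in R3, against 9.36 ± 0.20 in R2 and 9.72 ± 0.24 in R1, with log2 fold changes of -2.11 and -2.47 (adjusted p = 2.01e-05 and 6.09e-06). This call held under all 23 alternatives in both comparisons. The adaptor genes *Dok3* (-0.72 and -0.85) and *Dok1* (-0.69 and -0.99) were lower too, and *Dok1* against R2 lost the call when some single arrays were left out (highest adjusted p over the alternatives 0.143).

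**Figure D4:**
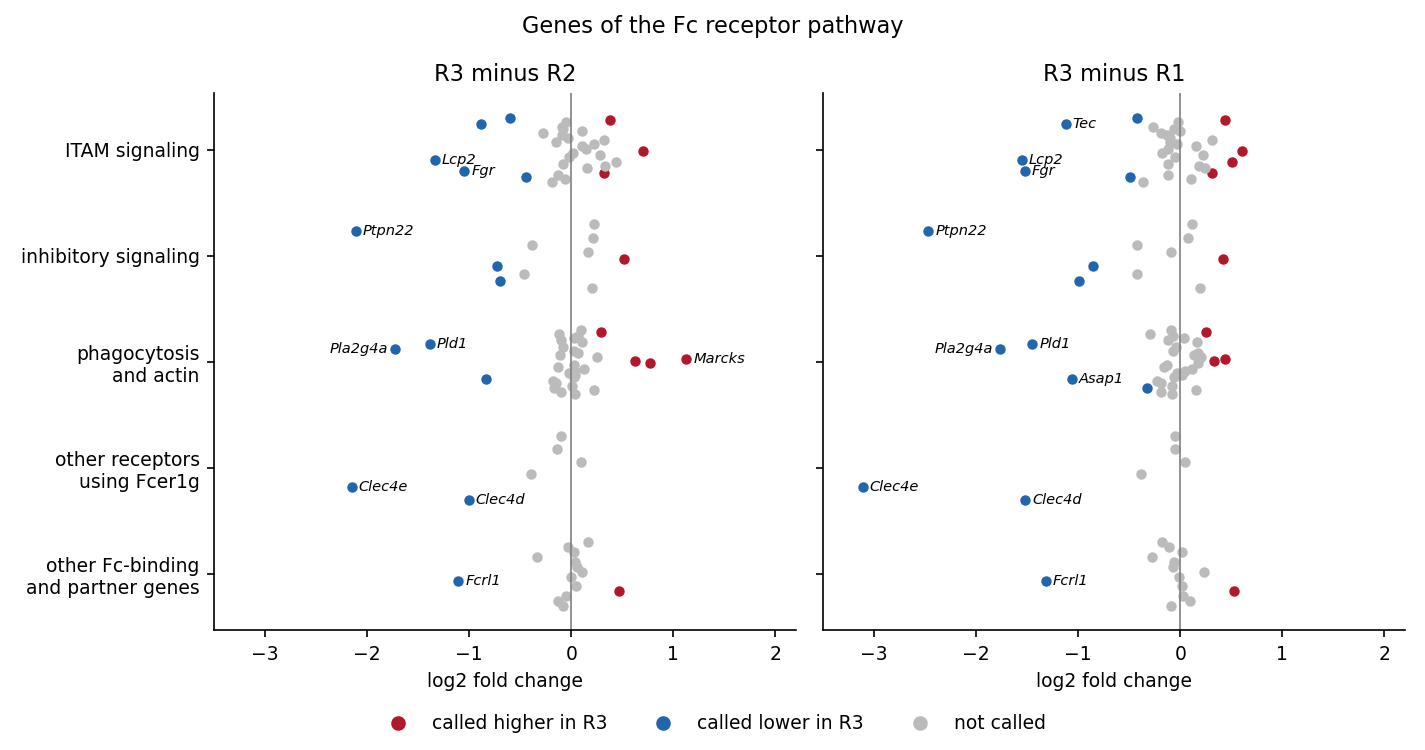
Log2 fold change (horizontal axis) of each measured gene of 5 pathway lists (rows), for R3 minus R2 (left) and R3 minus R1 (right), colored where the adjusted p was under 0.05 and named where the called change was at least 2-fold. Called genes lie on both sides of 0 in 4 of the 5 rows in each panel.

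Other receptors also use the *Fcer1g* chain. Of 6 measured, 2 were lower in R3 in both comparisons, the C-type lectin genes *Clec4e* (Mincle) and *Clec4d*, and the medians were -0.27 and -0.22. *Clec4e* was at 4.87 ± 0.42 in R3, against 7.03 ± 0.51 in R2 and 7.99 ± 0.27 in R1 (log2 fold changes of -2.15 and -3.11, adjusted p = 0.00108 and 9.1e-05), and *Clec4d* at 5.24 ± 0.04, 6.25 ± 0.15, and 6.76 ± 0.35 in the same order (-1.01 and -1.52). The other 4 measured genes of this list, *Clec4n*, *Oscar*, *Ncr1*, and *Lilra5*, were not called in either comparison. Among the members that pair with the common chain, *Fcgr1* and *Fcgr3* were lower in R3, whereas *Fcgr4* and *Fcer1a* were not called. *Fcer1g* itself was not called either. Of 14 other Fc-binding genes and partner chains, 1 was lower and 1 higher in R3 in both comparisons, with medians of 0.01 and -0.04. *Fcrl1*, an Fc receptor-like gene known from B cells, was lower (log2 fold changes of -1.11 and -1.32, adjusted p = 0.000908 and 0.000247). *Fcer2a*, which encodes the low-affinity IgE receptor CD23, was higher by 0.47 and 0.53 at a low level, 5.10 ± 0.17 in R3, against 4.63 ± 0.09 in R2 and 4.57 ± 0.22 in R1, and the call was lost in 14 of 22 alternatives against R2 and in 8 of 22 against R1, single arrays left out among them. *Cd247*, listed among the partner chains, was at 6.42 ± 0.05 in R3, against 6.55 ± 0.05 in R2 and 6.33 ± 0.16 in R1. *B2m*, the partner of the neonatal receptor, was at 12.72 ± 0.05, 12.80 ± 0.02, and 12.82 ± 0.02 in the same order, and neither was called.

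Of 32 measured genes of phagocytosis and actin remodeling, 4 were called higher in R3 and 3 lower relative to R2, and 3 higher and 4 lower relative to R1, with median log2 fold changes of 0.03 and -0.07. *Pla2g4a*, the cytosolic phospholipase A2, was at 6.66 ± 0.60 in R3, against 8.39 ± 0.12 in R2 and 8.43 ± 0.23 in R1 (log2 fold changes of -1.73 and -1.77, adjusted p = 0.00254 and 0.00163). *Pld1*, a phospholipase D (-1.39 and -1.45), and *Asap1*, an Arf GTPase regulator (-0.84 and -1.07), were lower as well. *Marcks*, which binds actin and membrane phospholipids, was at 10.89 ± 0.19 in R3, against 9.77 ± 0.13 in R2 and 10.46 ± 0.13 in R1. It was called in all 3 comparisons, as the 1 gene of the 5 lists called between R2 and R1, with log2 fold changes of 1.13 for R3 minus R2, 0.43 for R3 minus R1, and -0.69 for R2 minus R1 (adjusted p = 0.000244, 0.0359, and 0.0493), and the calls against R1 were lost in 14 (R3) and 16 (R2) of 23 alternatives. *Limk1*, a kinase that acts on cofilin (0.63 and 0.33), and *Wasf2* (0.29 and 0.25) were also higher in R3 in both comparisons, and *Gsn* (gelsolin) was higher than in R2 (0.77, adjusted p = 0.00284). *Arpc1b* was lower than in R1 (-0.33). *Wasf2* in both comparisons, and *Limk1* and *Arpc1b* against R1, lost the call when some single arrays were left out (highest adjusted p over the alternatives 0.281, 0.294, 0.222, and 0.338 in this order).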

How the data were processed

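RNA (1 ng per sample) from R3, R2, and R1 cells was amplified with a NuGEN kit, labeled with biotin, and hybridized to Affymetrix gene arrays. The authors deposited 1 linear intensity per probe set and array, for 34760 probe sets and 9 arrays (array medians 58.0 to 64.7). Background correction, summarization, and normalization are not given in the sources used here, and the number of arrays limits the precision. Of the probe sets, 21640 name 1 gene, 1321 several, and 11799 none. Of the 21640, 21553 matched the RefSeq gene table by Entrez ID, and the others kept their annotated symbol. Among all 21640, the brightest on average was kept per gene (19937 genes), with no filter on dim genes. Tests used limma 3.58.1 in R 4.3.3 on log2 intensity (lmFit, eBayes, 3 populations, no block) and were tested on simulated data. A fold change subtracts the population named last. Named genes are the members, up to 4 called genes of largest change per list and direction, and a few fixed partners and sort markers. Members, lists, and tests were chosen with earlier results of these data known. All columns were used (0 left out). In 1638 probe sets a population has 3 identical values, but in 0 of the members. Replicate numbers stand for label dates, with 1 array per population each. Deviations from population means correlated between arrays of a date at r = -0.0244 to 0.152 (9 pairs), and between dates at -0.15 to 0.0809 (18 pairs).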

Additional observations from a re-analysis of the deposited data

How the results depend on the processing

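Over the alternatives for normalization, offset, filter on dim genes, choice of probe set, array weights, moderation, test, and left-out arrays, *Fcgr3* kept its call in each one run, with adjusted p from 2.17e-07 to 0.00748 for R3 minus R2 and from 1.29e-07 to 0.0114 for R3 minus R1. Each member has 1 probe set, so taking the mean over probe sets could not change the members' own fold changes. *Fcgr2b* kept its direction, with log2 fold changes of -0.85 to -0.66 against R2. Its call against R2 was lost with the methods' unpaired test after adjustment (0.0585), and the 2-fold minimum of the methods removed it in both comparisons. *Fcgr1* kept its direction and lost the call against R2 when all probe sets were tested (0.0747), when only the 2 populations entered the fit (0.0746), and with the methods' adjusted test (0.248), which also removed it against R1 (0.145). The methods' adjusted test called 1 Fc receptor gene between R3 and R2, and leaving out arrays left 1 to 3. Of the partner genes called, 5 of 23 between R3 and R2 (*Ptpn22*, *Limk1*, *Marcks*, *Pld1*, and *Asap1*) and 4 of 24 between R3 and R1 (*Ptpn22*, *Asap1*, *Clec4e*, and *Fcrl1*) were called under every alternative other than the methods' unadjusted test with a 2-fold minimum, which was not run for these. With the label date as a replicate block, in keeping with the pairing by date, no call of a member changed, and 23 genes were called between R2 and R1 against 78 without it. Of all genes, the methods' test after adjustment called 893 between R3 and R2, 658 between R3 and R1, and 1 between R2 and R1, and unadjusted with a 2-fold minimum 598, 739, and 19. Without 1 array or 1 date, 757 to 2183, 1117 to 2843, and 0 to 124 genes were called. The count between R2 and R1 was 20 with median centring, 343 with array weights, 1 with only these populations in the fit, and 0 with all probe sets tested, where 2129 genes had an unadjusted p under 0.05 in the limma fit of 1 probe set per gene.

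Signs turned only for the following differences. *Fcgr4* in R3 minus R2, at -0.31 with all arrays, was 0.22 without R3 replicate 2, in a range of -0.61 to 0.22 over left-out arrays. *Fcer1a* in R3 minus R2 was -0.027 without R2 replicate 1 and -0.023 without replicate 1 of all populations (range -0.027 to 0.078). *Fcer1a* in R2 minus R1 was -0.035 with median centring, -0.00011 and -0.00041 without R2 replicate 3 or R1 replicate 2, and -0.012 without replicate 2 of all (range -0.012 to 0.124). *Fcgr3* minus *Fcgr2b* in R2 minus R1 was 0.033 without R2 replicate 2, 0.0098 without R1 replicate 3, and 0.081 without replicate 2 of all (range -0.198 to 0.081). The causes were not tested. The filter on dim genes removed *Fcer1a*. The dim signal of *Fcer1a*, the wide spread of *Fcgr4*, and the number of arrays limit what could be detected.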
